A study of Mus musculus with 8 samples.

Results

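The planar cell polarity core and the Daam formins were examined as a set of 10 genes: Vangl1, Vangl2, Celsr1, Celsr2, Celsr3, Prickle1, Prickle2, Ptk7, Daam1 and Daam2. They were matched by symbol, as the genes of the count data whose Ensembl identifier carries that symbol in the NCBIM37 (mm9) mouse annotation. The set was chosen with earlier results of these data known, so its shares of calls may not be independent of those results. All 10 symbols were found, among the 36536 genes of the count data, and all 10 genes are annotated as protein coding. The data were RNA-seq libraries of cells sorted from the cochlea of newborn mice that carry an Lfng-EGFP BAC transgene (strain B6;FVB-Tg(Lfng-EGFP)HM340Gsat/Mmucd), which labels supporting cells with GFP. There were 4 groups of 2 libraries each, namely GFP+ and GFP- cells at postnatal day 1 (P1) and GFP+ and GFP- cells at postnatal day 6 (P6), so every group carried the transgene, and the cochleas were neither cultured nor treated before dissociation and sorting. The GFP+ group was the brightest gate only, which per the study holds Deiters' cells, outer but not inner pillar cells, border cells and inner phalangeal cells. Dimly labelled cells were not collected, and each library pooled cells from many cochleas. In the dissection the study describes for explants of these ages, the lateral wall and stria vascularis were taken off at P1 but only partially at P6. Nothing in the labels says that the 2 libraries of a group came from separate animals, so each p-value measures only the spread between these libraries, which may be technical.

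Planar cell polarity aligns cells within the plane of an epithelium. In the cochlea it turns the stereociliary bundles of hair cells the same way, and the junctions between hair cells and supporting cells carry its core proteins in an asymmetric pattern. Vangl and Prickle proteins gather on the opposite side of a cell from Frizzled and Dishevelled, the Celsr cadherins bridge neighbouring cells, Ptk7 is a membrane protein with an inactive kinase domain that acts with them, and the Daam formins bind Dishevelled and assemble actin. In these bulk libraries, fewer cells of a type and less RNA per cell cannot be told apart.

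In NCBIM37 the genes lie at chr3:101960624-102008616 (Vangl1, minus strand), chr1:173931091-173958575 (Vangl2, minus), chr15:85729188-85864207 (Celsr1, minus), chr3:108193769-108218470 (Celsr2, minus) and chr9:108728651-108755294 (Celsr3, plus). Prickle1 lies at chr15:93329545-93426322 (minus), Prickle2 at chr6:92320886-92656139 (minus), Ptk7 at chr17:46701400-46766453 (minus), Daam1 at chr12:72932065-73093354 (plus) and Daam2 at chr17:49595347-49703662 (minus).

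Promoters were available from RefSeq (GRCm38.p6) for 8 of the 10 genes, not for Vangl1 and Celsr1. The 4 windows printed here belong to genes called between GFP+ and GFP- cells at P1. Daam2 and Celsr2 were higher in GFP+ cells at P1, and Ptk7 and Prickle1 were lower in GFP+ cells at both ages. Vangl2, also called higher in GFP+ cells at P1, has a window that is described below but not printed. Prickle1 and Daam2 each have 1 further start in the table, whose windows are not printed: the start farthest upstream on the gene's strand is shown. Each window is the run of bases directly upstream of a transcript's start, written 5′ to 3′ on the gene's own strand, which is the minus strand for all 4. The windows lie at chr17:49564338-49564587 for Daam2, chr3:108415580-108415829 for Celsr2, chr17:46629505-46629754 for Ptk7 and chr15:93595903-93596152 for Prickle1. Capitals mark matches, on either strand, to any of 6 motifs that were searched.
Daam2: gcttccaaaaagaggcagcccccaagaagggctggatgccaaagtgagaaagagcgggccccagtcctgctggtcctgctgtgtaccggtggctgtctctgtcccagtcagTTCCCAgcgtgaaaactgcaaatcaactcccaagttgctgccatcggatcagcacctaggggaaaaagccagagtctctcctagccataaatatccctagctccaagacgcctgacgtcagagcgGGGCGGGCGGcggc
Celsr2: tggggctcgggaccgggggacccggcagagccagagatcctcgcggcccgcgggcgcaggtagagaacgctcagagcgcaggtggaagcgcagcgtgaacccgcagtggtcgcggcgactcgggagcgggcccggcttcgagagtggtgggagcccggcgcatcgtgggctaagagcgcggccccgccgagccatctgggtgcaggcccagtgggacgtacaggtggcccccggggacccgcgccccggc
Ptk7: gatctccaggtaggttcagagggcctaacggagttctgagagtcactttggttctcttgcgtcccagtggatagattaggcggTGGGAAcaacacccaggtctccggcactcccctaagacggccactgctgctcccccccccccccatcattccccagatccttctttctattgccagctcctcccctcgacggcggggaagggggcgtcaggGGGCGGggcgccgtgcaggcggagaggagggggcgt
Prickle1: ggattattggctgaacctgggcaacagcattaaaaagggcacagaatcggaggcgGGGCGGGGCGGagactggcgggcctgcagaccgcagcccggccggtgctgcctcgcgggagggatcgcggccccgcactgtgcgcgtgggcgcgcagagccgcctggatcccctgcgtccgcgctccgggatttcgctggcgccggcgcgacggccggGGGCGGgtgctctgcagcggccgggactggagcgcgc

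The motifs were the TATA box (TATAAA), the GC box (GGGCGG), the TCF/LEF core (CTTTGA), the RBPJ core (TGGGAA), the SOX core (ACAATG) and the GATA core (AGATAA). The Daam2 window held 2 overlapping GC boxes and 1 RBPJ match, the Ptk7 window 1 GC box and 1 RBPJ match, the Prickle1 window 3 GC boxes, of which the first pair overlap, and the Celsr2 window none of the 6 motifs. Of all 32851 promoter windows of the same length, 32.7% held a GC box, 21.6% an RBPJ match, 13.8% a TCF/LEF match, 12.4% a TATA box, 10.7% a SOX match and 9.99% a GATA match. The Celsr2 and Prickle1 windows were rich in CpG dinucleotides, with 32 and 34 of them, more than 95.4% and 96.5% of all windows, while Ptk7 had 14 and Daam2 had 10. The further windows of Prickle1 and Daam2, not printed, had 16 CpG, 2 GC boxes and 1 SOX match for Prickle1, and 14 CpG with the same motif counts as the printed window for Daam2. The Vangl2 window had 18 CpG, 2 GC boxes, 1 RBPJ match and 1 SOX match. A match describes these letters and does not show that a factor binds there.

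The libraries held between 17769024 and 67695039 counts on genes, and levels are given as CPM, a gene's counts scaled to a library total of 1000000 gene counts. The sums of supporting cell and mesenchyme markers lay far apart between the fractions at both ages. At P6 the Schwann cell sums overlapped, with 1118 to 2123 CPM in GFP+ and 1129 to 1346 CPM in GFP- libraries. So did the endothelium sums, with 45.4 to 174 CPM in P6 GFP+ and 105 to 114 CPM in P6 GFP- libraries. The 8 supporting cell markers (Lfng, Sox2, Prox1, Fgfr3, Hes5, Slc1a3, Lgr5 and Cdkn1b) summed to 7092 to 7676 CPM in P1 GFP+, 566 to 574 in P1 GFP-, 5032 to 6880 in P6 GFP+ and 475 to 479 in P6 GFP- libraries. Lfng, the gene of the transgene, gave 2460 and 2821 CPM of the P1 GFP+ sums. At P1, 7 of the 8 markers were called higher in GFP+ cells and 1 lower. That 1 was Slc1a3, at 157 and 157 CPM in P1 GFP+ and 379 and 312 CPM in P1 GFP- libraries. The 7 mesenchyme and fibrocyte markers summed to 444 to 498 CPM in P1 GFP+, 13715 to 15666 in P1 GFP-, 1759 to 3515 in P6 GFP+ and 18130 to 18905 in P6 GFP- libraries. Hair cell markers were not depleted from the GFP+ gate, since 9 of them summed to 708 to 813 CPM in P1 GFP+ and 443 to 477 CPM in P1 GFP- libraries. Myo6 gave 442 and 475.5 CPM of the P1 GFP+ sums, and 406 and 348 CPM of the P1 GFP- sums. At P1, 5 of the 9 were called higher in GFP+ cells, 0 lower and 4 were not called, and the same counts held at P6. The P6 sums were 443 to 522 CPM in GFP+ and 353 to 393 CPM in GFP- libraries. The 2 P6 GFP+ libraries stood apart from each other: replicate 2 had more mesenchyme marker counts (3515 against 1759 CPM) and fewer supporting cell marker counts (5032 against 6880 CPM) than replicate 1. In CPM, all 10 genes of the set were higher in replicate 2, by 0.18 to 0.74 on the log2 scale. The share of all genes higher in replicate 2 was not computed. TMM scaling, with factors of 0.928 for replicate 1 and 0.975 for replicate 2, makes these differences smaller. The part of the differences between these 2 libraries in the results was not tested, and results are given without each library where a call depends on it.

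**Figure D1:**
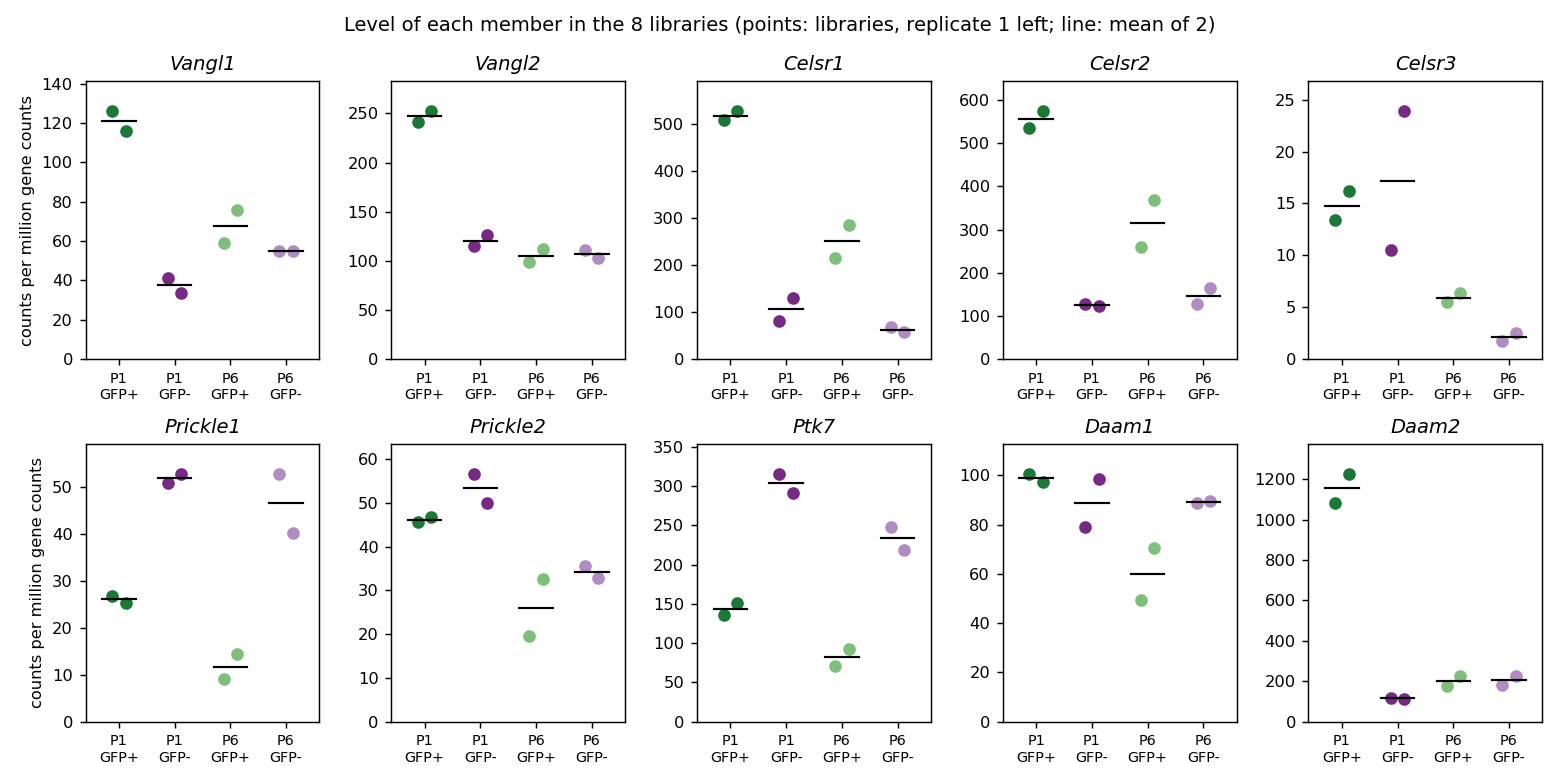
Level of each of the 10 genes in the 8 libraries, in CPM on a linear axis that starts at 0; points are single libraries, with replicate 1 on the left, and lines are means of 2. Daam2 stood at 1080.5 and 1228 CPM in the P1 GFP+ libraries and between 112 and 228 CPM in the other 6.

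Of the Vangl genes, which encode the multi-pass membrane proteins at the centre of the core complex, Vangl1 was at 126 and 116 CPM in P1 GFP+ and at 41.2 and 33.6 CPM in P1 GFP- libraries. At P6 it was at 59.1 and 75.6 CPM in GFP+ and at 54.9 and 54.8 CPM in GFP- libraries. The fractions were thus far apart at P1 and close at P6, with no overlap at either age. The log2 fold change of GFP+ over GFP- cells was 1.80 ± 0.13 (SE) at P1 (edgeR quasi-likelihood test, adjusted p = 0.000144) and 0.29 ± 0.17 at P6 (adjusted p = 0.236). The level at P6 relative to P1 was -0.75 ± 0.15 on the log2 scale in GFP+ cells (adjusted p = 0.0275) and 0.74 ± 0.13 in GFP- cells (adjusted p = 0.0115). Neither age difference passed the threshold of an adjusted p below 0.01. The signs were opposite in the 2 fractions, and the interaction of age and fraction, which is the log2 ratio of GFP+ to GFP- cells at P6 minus that at P1, was -1.52 ± 0.22 (adjusted p = 0.00711). This call was lost with all libraries kept when scaled to library totals (adjusted p = 0.0129) or fitted with the replicate number as a block (adjusted p = 0.0199). It was also lost without any 1 of the 4 P1 or the 2 P6 GFP- libraries, fits with a single library in 1 group. Over all genes, too, fewer interactions were called in each of those fits. Without each of the 8 libraries in turn, the interaction lay between -1.69 and -1.29 on the log2 scale.

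Vangl2, the gene mutated in Looptail mice, was at 242 and 253 CPM in P1 GFP+ libraries. It was at 115 and 126 CPM in P1 GFP-, 98.7 and 112 CPM in P6 GFP+ and 111 and 103 CPM in P6 GFP- libraries. Only the P1 GFP+ group stood apart: the 6 other libraries lay between 98.7 and 126 CPM. The fraction difference was 1.14 ± 0.09 at P1 (edgeR, adjusted p = 0.000174) and -0.03 ± 0.16 at P6 (adjusted p = 0.887). In GFP+ cells Vangl2 fell by 1.14 ± 0.12 on the log2 scale from P1 to P6, or 2.21-fold (edgeR, adjusted p = 0.00623), and in GFP- cells the difference was 0.03 ± 0.11 (adjusted p = 0.894), with a sign that depends on scaling (-0.17 when scaled to library totals alone). The fall in GFP+ cells was not called without P1 GFP+ replicate 1 (adjusted p = 0.0215) or replicate 2 (adjusted p = 0.0614). The interaction was -1.19 ± 0.18 (edgeR, adjusted p = 0.00856) and, like that of Vangl1, was not called with library totals (adjusted p = 0.0136) or with the replicate block (adjusted p = 0.0231). Nor was it called without any 1 of the P1 or the P6 GFP- libraries, fits in which fewer interactions were called over all genes. Without each library in turn, the interaction lay between -1.28 and -1.09 on the log2 scale. Per length of merged exons, Vangl2 made up 52.5% and 55.8% of the summed Vangl level in P1 GFP+ libraries and 61.6% and 68.4% in P1 GFP-, against 49.1% and 46.1% in P6 GFP+ and 53.9% and 52.1% in P6 GFP- libraries. These shares depend on the length used. Per kilobase of the longest transcript, mean Vangl1 and Vangl2 levels in P6 GFP- cells were 16.1 and 16.4.

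Celsr1 and Celsr2 encode large membrane-spanning cadherins that bind each other across cell borders. Celsr1 was at 507 and 527 CPM in P1 GFP+, 81.2 and 130.1 CPM in P1 GFP-, 214 and 286 CPM in P6 GFP+ and 67.2 and 57.4 CPM in P6 GFP- libraries. It was the member with a called excess in GFP+ cells at both ages. The excess was 2.40 ± 0.22 on the log2 scale, or 5.26-fold, at P1 (edgeR, adjusted p = 0.000337) and 1.99 ± 0.21, or 3.98-fold, at P6 (adjusted p = 0.00274). The P6 call was lost without P6 GFP- replicate 1 or replicate 2, with fold changes of 2.17 and 1.87 on the log2 scale. Few or no genes at all were called in those fits. The age difference was -0.96 ± 0.17 in GFP+ cells (adjusted p = 0.0208) and -0.57 ± 0.22 in GFP- cells (adjusted p = 0.116), and the interaction was -0.42 ± 0.33 (adjusted p = 0.533), so that no difference between the ages in the fraction ratio was detected for Celsr1.

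Celsr2 was at 536 and 575 CPM in P1 GFP+ and at 127 and 123 CPM in P1 GFP- libraries. At P6 it was at 260.5 and 369 CPM in GFP+ and at 128 and 164 CPM in GFP- libraries. The fractions did not overlap at either age, and the GFP- libraries of both ages lay close together. The log2 excess in GFP+ cells was 2.26 ± 0.09, or 4.78-fold, at P1 (edgeR, adjusted p = 2.22e-05) and 1.10 ± 0.24, or 2.14-fold, at P6 (adjusted p = 0.0194). The P6 difference was called without P6 GFP+ replicate 1 (adjusted p = 1.05e-05) and without replicate 2 (adjusted p = 0.000637), fits with a single P6 GFP+ library in which 5654 and 7767 genes were called, against 2363 with all 4 libraries. The age difference was -0.73 ± 0.19 in GFP+ cells (adjusted p = 0.0524) and 0.41 ± 0.13 in GFP- cells (adjusted p = 0.0679), and the interaction was -1.17 ± 0.25 (adjusted p = 0.0343).

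Celsr3, the family member best known from axon guidance in neurons, was the lowest of the set, with 97 to 1510 counts per library. It was at 13.4 and 16.2 CPM in P1 GFP+, 10.5 and 23.9 CPM in P1 GFP-, 5.46 and 6.39 CPM in P6 GFP+ and 1.73 and 2.50 CPM in P6 GFP- libraries. The P1 GFP- libraries lay on both sides of the GFP+ ones. Replicate 2 of that group, the higher, also had the highest sum of the 6 neuron markers, 577 CPM against 170 CPM in replicate 1 and 47.5 to 116 CPM in the other 6 libraries; the part of those counts in the Celsr3 values was not tested. The fraction difference at P1 was -0.12 ± 0.37 (edgeR, adjusted p = 0.801), and its sign was set by single libraries, with -0.63 without P1 GFP- replicate 1 and 0.58 without replicate 2. At P6 the difference was 1.48 ± 0.31 (adjusted p = 0.0182), with both GFP+ libraries above both GFP- libraries. In GFP- cells Celsr3 fell 7.14-fold from P1 to P6 (log2 -2.84 ± 0.41, edgeR, adjusted p = 0.00507), a call lost without P6 GFP- replicate 1 (adjusted p = 0.0489) or replicate 2 (adjusted p = 0.0297). In GFP+ cells the age difference was -1.22 ± 0.21 (adjusted p = 0.0189), and the interaction was 1.59 ± 0.53 (adjusted p = 0.125). In the annotation 65 exon bases of Celsr3 overlap another gene on the same strand, AC168054.1, and 8 exon bases of Vangl1 overlap Gm16160 on the opposite strand, so reads there could be assigned to neither gene or to the wrong one.

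Prickle1 and Prickle2 encode LIM-domain proteins that bind Vangl proteins on the inner face of the membrane. Prickle1 was at 26.9 and 25.3 CPM in P1 GFP+, 51.0 and 52.9 CPM in P1 GFP-, 9.06 and 14.5 CPM in P6 GFP+ and 52.9 and 40.3 CPM in P6 GFP- libraries. It was thus lower in GFP+ cells at both ages, opposite to its binding partners Vangl1 and Vangl2 at P1. The log2 difference was -0.89 ± 0.10 at P1, or 1.85-fold lower (edgeR, adjusted p = 0.000689), and -1.99 ± 0.28 at P6, or 3.98-fold lower (adjusted p = 0.00585). The P1 call was lost without P1 GFP+ replicate 2 (log2 -0.81) and the P6 call without P6 GFP- replicate 1 (log2 -1.72) or replicate 2 (log2 -2.19). Few or no genes at all were called in those P6 fits. Its age difference was -1.06 ± 0.24 in GFP+ cells (adjusted p = 0.0396) and 0.04 ± 0.16 in GFP- cells (adjusted p = 0.888; -0.16 with library totals), and the interaction was -1.12 ± 0.31 (adjusted p = 0.0767).

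Prickle2 was at 45.6 and 46.8 CPM in P1 GFP+, 56.7 and 49.9 CPM in P1 GFP-, 19.5 and 32.5 CPM in P6 GFP+ and 35.6 and 32.8 CPM in P6 GFP- libraries. Its GFP+ libraries lay below the GFP- libraries at both ages, but by little. No comparison called it: the fraction difference was -0.10 ± 0.10 at P1 (edgeR, adjusted p = 0.434) and -0.40 ± 0.26 at P6 (adjusted p = 0.280), and the age difference was -0.74 ± 0.24 in GFP+ cells (adjusted p = 0.0890) and -0.45 ± 0.13 in GFP- cells (adjusted p = 0.0513). The balance within the family lay apart in the 2 fractions, since Prickle2 made up 46.1% to 53.1% of the summed Prickle level per length in the 4 GFP+ libraries and 25.3% to 35.9% in the 4 GFP- libraries, without overlap.

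Ptk7 was at 135 and 151 CPM in P1 GFP+, 316 and 291 CPM in P1 GFP-, 71.5 and 92.8 CPM in P6 GFP+ and 248 and 219 CPM in P6 GFP- libraries. The 4 GFP- libraries all lay above the 4 GFP+ libraries. In GFP+ cells it was lower by -0.98 ± 0.10 on the log2 scale, or 1.98-fold, at P1 (edgeR, adjusted p = 0.000426) and by -1.51 ± 0.20, or 2.86-fold, at P6 (adjusted p = 0.00492). The P6 call was lost without P6 GFP- replicate 1 (log2 -1.36) or replicate 2 (log2 -1.62), fits in which few or no genes at all were called. Mesenchyme marker sums ran the same way as Ptk7 and Prickle1 between the fractions, with 13715 CPM or more in every GFP- library and 3515 CPM or less in every GFP+ library, and their part in these differences was not tested. The age difference of Ptk7 was -0.71 ± 0.15 in GFP+ cells (adjusted p = 0.0322) and -0.19 ± 0.13 in GFP- cells (adjusted p = 0.346), and the interaction was -0.55 ± 0.22 (adjusted p = 0.196). Ptk7 overlaps the annotated gene Gm16736 on the opposite strand but shares no exon base with it.

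Daam2 had the largest difference of the set between the fractions at P1, between the ages in GFP+ cells and in the interaction. The Daam proteins are formins that bind Dishevelled and nucleate straight actin filaments. Daam2 was at 1080.5 and 1228 CPM in P1 GFP+, 119 and 112 CPM in P1 GFP-, 176 and 226 CPM in P6 GFP+ and 183 and 228 CPM in P6 GFP- libraries. The 2 fractions were 10.7-fold apart at P1 and overlapped at P6. The log2 fold change of GFP+ over GFP- cells was 3.42 ± 0.12 at P1 (edgeR, adjusted p = 1.40e-05) and -0.04 ± 0.21 at P6 (adjusted p = 0.904). In GFP+ cells Daam2 fell 5.39-fold from P1 to P6 (log2 -2.43 ± 0.18, edgeR, adjusted p = 0.00297), and in GFP- cells it rose 2.03-fold (log2 1.02 ± 0.13, adjusted p = 0.00286). The interaction was -3.48 ± 0.24 (edgeR, adjusted p = 0.000445), called under every alternative run, library exclusions included, as was the P1 difference. The fall in GFP+ cells was not called without P1 GFP+ replicate 2 (log2 -2.36, adjusted p = 0.0108), nor the rise in GFP- cells without P6 GFP- replicate 2 (log2 0.90, adjusted p = 0.0151) or when scaled to library totals (log2 0.83, adjusted p = 0.0105). At P6, where the Daam2 levels of the fractions overlapped, their supporting cell marker sums did not, with 5032 to 6880 CPM in GFP+ and 475 to 479 CPM in GFP- libraries.

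Daam1 was at 100.7 and 97.2 CPM in P1 GFP+, 78.8 and 98.3 CPM in P1 GFP-, 49.2 and 70.6 CPM in P6 GFP+ and 88.7 and 89.6 CPM in P6 GFP- libraries. The fractions overlapped at P1, and at P6 both GFP+ libraries lay below both GFP- libraries. None of its differences passed the threshold: the fraction difference was 0.26 ± 0.12 at P1 (edgeR, adjusted p = 0.120) and -0.58 ± 0.20 at P6 (adjusted p = 0.0731), the age difference was -0.63 ± 0.18 in GFP+ cells (adjusted p = 0.0646) and 0.20 ± 0.13 in GFP- cells (adjusted p = 0.313), and the interaction was -0.86 ± 0.25 (adjusted p = 0.0846). Per length, Daam2 made up 91.4% and 92.6% of the summed Daam level in P1 GFP+ libraries, 60.0% and 53.0% in P1 GFP-, 78.0% and 76.1% in P6 GFP+ and 67.2% and 71.6% in P6 GFP- libraries. Daam2 was the larger part in all 8 libraries, and by the widest margin in P1 GFP+ cells.

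The comparison of GFP+ with GFP- cells at P1 asks which genes differ between the sorted fractions of the newborn cochlea. The fractions also differed in epithelium markers (Epcam, Cdh1, Krt8, Krt18, Cldn6, Cldn9 and Esrp1). All 7 were called higher in P1 GFP+ cells, with a median log2 fold change of 3.31. They summed to 3517 to 3568 CPM in P1 GFP+ and 289 to 453 CPM in P1 GFP- libraries. The part of this difference in the values of the set was not tested. Daam2 (10.7-fold), Celsr1 (5.26-fold), Celsr2 (4.78-fold), Vangl1 (3.48-fold) and Vangl2 (2.21-fold) were higher in GFP+ cells, and Ptk7 (1.98-fold) and Prickle1 (1.85-fold) were lower. Of the 10 genes, 5 were called higher and 2 lower, where 16.6% of the 18682 genes tested were called higher and 20.7% lower. The median log2 fold change was 0.70 over the 10 genes and 0.01 over all genes tested. Libraries of the 2 groups did not overlap for 8 of the 10 genes, 5 above and 3 below, against 34.5% of all genes above and 44.9% below. With the further demand of a fold change above 4, which the study used, 3 of the 10 genes were higher (Daam2, Celsr1 and Celsr2) and 0 lower, where 6.46% and 11.4% of all genes were, and 7 of the 10 passed the edgeR test at an adjusted p below 0.01 without that demand.

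At P6 the same question gave fewer calls in the set. Celsr1 (3.98-fold) was higher in GFP+ cells, and Prickle1 (3.98-fold) and Ptk7 (2.86-fold) were lower. That made 1 gene of the 10 called higher and 2 lower, where 7.72% of the 18294 genes tested were called higher and 5.19% lower. Libraries did not overlap for 4 genes above and 4 below, against 35.7% and 37.6% of all genes, and the overlapping pair was Vangl2 and Daam2. The median log2 fold change over the set was -0.04, against -0.02 over all genes. The 3 calls were lost without either P6 GFP- library, but few or no genes at all were called in those fits. With a fold change above 4 demanded as well, 0 of the 10 genes were called in edgeR, against 3 without it and against 4.88% of all genes higher and 3.1% lower.

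**Figure D2:**
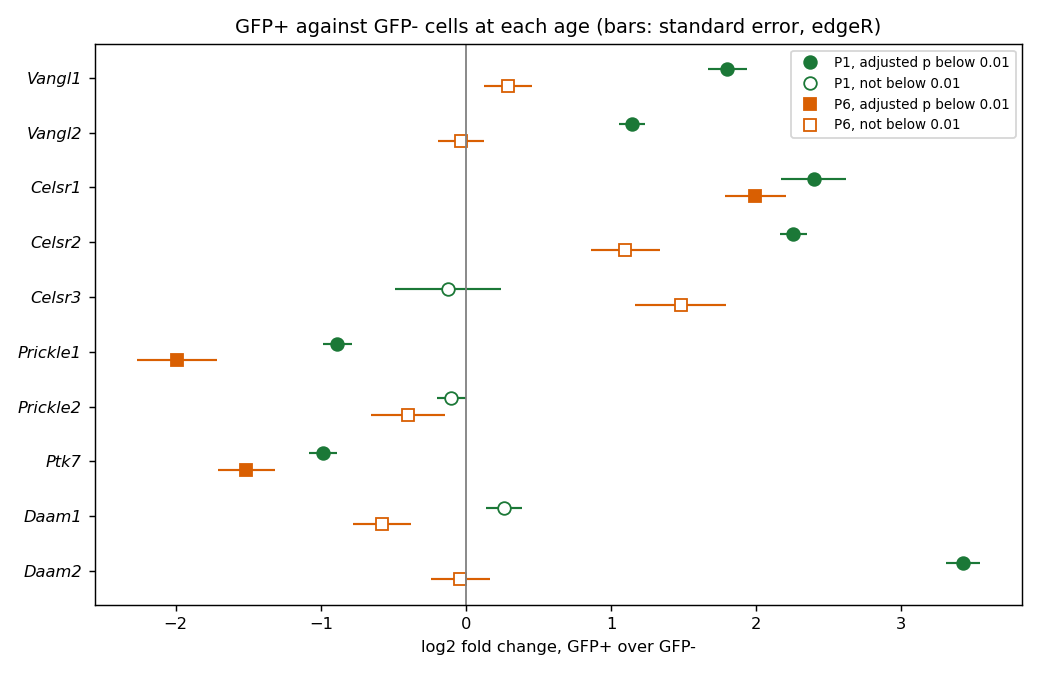
Log2 fold change of GFP+ over GFP- cells for each gene at P1 (circles) and at P6 (squares), with bars for the standard error; filled symbols have an adjusted p below 0.01. Daam2 lay at 3.42 at P1 and at -0.04 at P6, whereas Ptk7 and Prickle1 lay below 0 at both ages.

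Across age, the GFP+ comparison asks how the supporting cells changed over the first postnatal week. Daam2 (5.39-fold) and Vangl2 (2.21-fold) fell from P1 to P6. Of the 10 genes, 0 were called higher and 2 lower in edgeR, where 2.86% of the 17213 genes tested were called higher and 1.95% lower. All 10 genes were below 0 on the log2 scale, between -0.63 for Daam1 and -2.43 for Daam2, with a median of -0.86 against -0.00 over all genes, and in all 10 both P6 libraries lay below both P1 libraries, as in 41.1% of all genes, while 29.3% of all genes lay above. A fold change above 4 left Daam2 as the 1 gene called lower, where 1.63% of all genes were called higher and 0.93% lower. With replicate 1 or replicate 2 of the P6 GFP+ libraries left out, which leaves a single library in that group and assumes that it varies like the others, all 10 genes were called lower, but so were 2636 of 18158 and 3604 of 17415 genes, and the calls in both directions rose from 828 to 6404 and 7531. Marker sums of GFP+ cells also differed between P1 and P6: mesenchyme 444 to 498 against 1759 to 3515 CPM, Schwann cells 525 to 560 against 1118 to 2123 CPM, epithelium 3517 to 3568 against 2136 to 2834 CPM and hair cells 708 to 813 against 443 to 522 CPM. The part of these differences in the Daam2 and Vangl2 values was not tested.

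In GFP- cells, Daam2 rose 2.03-fold and Celsr3 fell 7.14-fold from P1 to P6. These were the 1 gene called higher and the 1 called lower of the 10, where 5.04% of the 18920 genes tested were called higher and 2.34% lower. With a fold change above 4, Celsr3 alone was called, where 1.43% of all genes were higher and 0.418% lower. The set had a median of 0.03 on the log2 scale, against -0.02 over all genes. Libraries did not overlap for 3 genes above (Vangl1, Celsr2 and Daam2) and 5 below (Vangl2, Celsr1, Celsr3, Prickle2 and Ptk7), against 20.5% and 48.9% of all genes. Vangl2 lay below in CPM and at 0.03 in the fit, which scales by TMM. The stria and melanocyte markers summed to 431 to 576 CPM at P1 and 636 to 781 CPM at P6, and the cartilage markers to 18485 to 18641 CPM at P1 and 40324 to 43967 CPM at P6, while the neuron markers, like Celsr3, were lower at P6 (170 and 577 CPM at P1, 116 and 78.6 CPM at P6), and the part of such differences in the Daam2 and Celsr3 values was not tested.

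**Figure D3:**
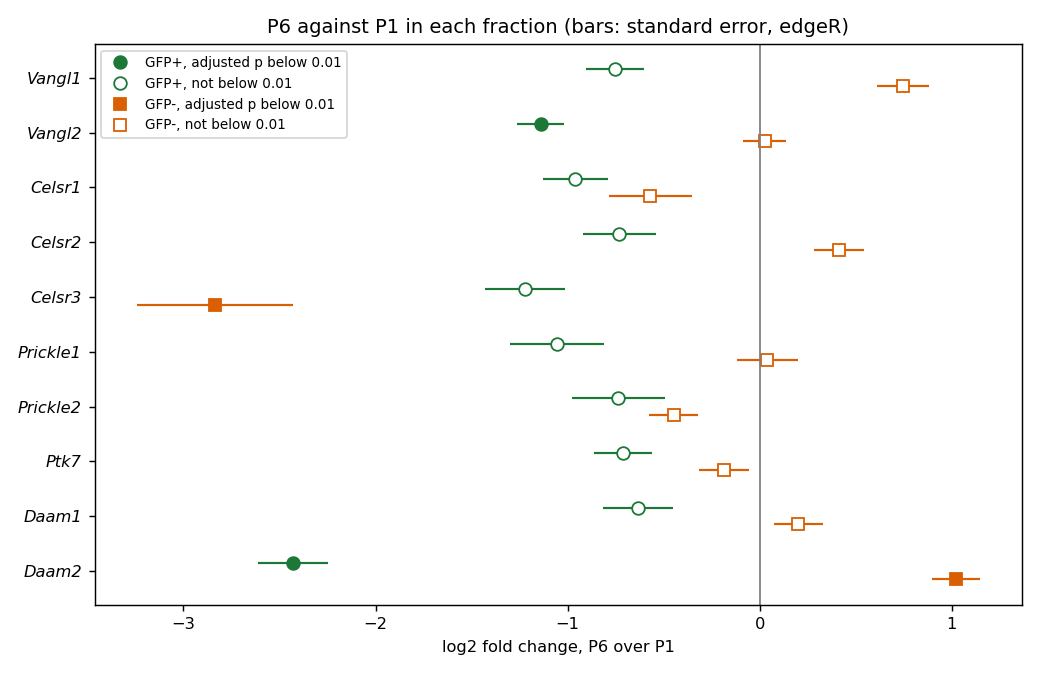
Log2 fold change of P6 over P1 for each gene in GFP+ cells (circles) and GFP- cells (squares), with bars for the standard error; filled symbols have an adjusted p below 0.01. All 10 circles lie below 0, and Daam2 lies at -2.43 in GFP+ and at 1.02 in GFP- cells.

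Whether the ratio of the fractions differed between the ages was tested in 1 fit over all 8 libraries. The ratio was lower at P6 for Daam2 (11.1-fold), Vangl1 (2.87-fold) and Vangl2 (2.28-fold). In edgeR, 0 of the 10 genes were called with a higher ratio at P6 and 3 with a lower ratio, where 0.946% and 0.988% of the 19233 genes tested were. With a ratio difference above 4-fold, Daam2 alone was called, where 0.66% of all genes were higher and 0.598% lower. The median over the set was -0.99, against 0.03 over all genes. Celsr1, the member with a called excess at both ages, had a ratio difference of -0.42 ± 0.33. The 4 comparisons of groups share libraries (the P1 GFP+ libraries enter the P1 and the GFP+ comparison, for example), so their values stand side by side and are not independent of each other.

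Between genes, levels were compared as CPM per kilobase of merged exons. In P1 GFP+ cells Daam2 was first at 191 ± 17.2 (SD, n = 2), followed by Celsr2 (48.2 ± 2.40) and Celsr1 (46.7 ± 1.29), whose libraries overlapped, then Vangl2 (35.4 ± 1.11), Ptk7 (30.4 ± 2.33) and Vangl1 (29.9 ± 1.83), the last pair overlapping, Daam1 (16.5 ± 0.417), Prickle1 (6.01 ± 0.256), Prickle2 (5.35 ± 0.0913) and Celsr3 (1.28 ± 0.171). In P1 GFP- cells the order began with Ptk7 (64.5 ± 3.70), well above Daam2 (19.1 ± 0.843) and Vangl2 (17.2 ± 1.11), while the libraries of Celsr1 (9.54 ± 3.12) overlapped those of its neighbours in the order, Celsr2 (10.9 ± 0.218) and Vangl1 (9.27 ± 1.34). Ptk7 thus led the order in the P1 GFP- libraries and Daam2 in the P1 GFP+ libraries. In P6 GFP+ cells each of the first 6 genes overlapped its neighbour in the order, from Daam2 (33.3 ± 5.88) over Celsr2 (27.3 ± 6.67), Celsr1 (22.6 ± 4.57), Ptk7 (17.4 ± 3.19) and Vangl1 (16.7 ± 2.88) to Vangl2 (15.1 ± 1.33). In P6 GFP- cells Ptk7 (49.5 ± 4.40) was again first, followed by Daam2 (34.0 ± 5.27), and Celsr1 (5.62 ± 0.626), Prickle2 (3.96 ± 0.227) and Celsr3 (0.183 ± 0.0467) closed the order. Celsr3 was the lowest in all 4 groups. Parts of the order depend on the length used. Per kilobase of the longest transcript, 17 of the group levels moved by their SD or more and 23 did not. With that length, Vangl1 lay above Ptk7 in P1 GFP+ cells (35.4 against 33.6) and in P6 GFP+ cells (19.7 against 19.3).

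Other genes of the pathway were taken from lists by role. Among 8 partners of the core, the receptors Fzd3 and Fzd6 and the Dishevelled-binding protein gene Ankrd6 (Diversin) were higher in GFP+ cells at P1, by 1.26, 2.19 and 2.28 on the log2 scale, and none was lower. The 3 Dishevelled genes had values of 0.03 to 0.23 and did not pass. At P6, Fzd6 (1.88) and Ankrd6 (1.45) were the 2 of 8 called higher, with none lower. Fzd6 was at 147 and 145 CPM in P1 GFP+ and at 195 and 177 CPM in P6 GFP+ libraries, so unlike all 10 members its P6 GFP+ libraries lay above the P1 ones. Ankrd6 fell in GFP+ cells with age (log2 -1.12, edgeR, adjusted p = 0.00663), the 1 of 8 partners called in that comparison, and the median of the partners was -0.85. In edgeR, 0 of the 8 partners were called with age in GFP- cells and 0 in the interaction, with 1 at an unadjusted p below 0.05 in each.

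Of 12 ligands, receptors and coreceptors, 3 were called higher and 6 lower in GFP+ cells at P1. The ligand genes Wnt7a (5.53) and Wnt7b (2.10) and the glypican Gpc6 (0.61) were higher on the log2 scale. The noncanonical ligands Wnt5a (-2.60), Wnt5b (-3.08) and Wnt11 (-2.89), their receptors Ror1 (-2.07) and Ror2 (-1.72) and the glypican Gpc3 (-4.11) were lower. At P6 the calls were Wnt7a (6.99) and Wnt7b (2.93) higher and Wnt5a (-2.67) and Gpc3 (-3.14) lower. Wnt7a was at 252 and 271 CPM in P1 GFP+ and 209 and 163 CPM in P6 GFP+ libraries, against 0.916 to 9.02 CPM in the 4 GFP- libraries. With age, Wnt5a rose in GFP- cells (1.06) as the 1 call of 12, 0 of 11 tested were called in GFP+ cells in edgeR (4 at an unadjusted p below 0.05), and the interaction called Ror2 (1.82) alone.

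Trafficking and turnover partners gave 3 higher and 2 lower of 10 at P1, with Lin7a (2.38), Lin7c (0.57) and the polarity scaffold Scrib (0.49) higher and the Dishevelled antagonist Dact1 (-3.69) and the scaffold Dlg1 (-0.59) lower in GFP+ cells, and at P6 Dact1 was the 1 call, again lower. In the Fat and Dachsous group, a separate cadherin system of planar polarity, 1 of 6 tested was higher at P1 (Fat3, 2.58) and 4 were lower (Fat4 -3.46, Fat1 -1.84, Dchs1 -1.73 and the kinase-like regulator Fjx1 -1.64), and at P6 Fjx1 (-2.42) was the 1 call. Fat3 fell in GFP+ cells with age (log2 -3.06, edgeR, adjusted p = 0.00624), from 133 and 129.8 CPM at P1 to 9.62 and 19.7 CPM at P6, and its interaction was -2.54 (adjusted p = 0.00879). Its fraction difference at P6 was 0.04, near that of Daam2. Among 13 effectors, 3 were higher at P1 (the ciliary planar polarity genes Intu 0.93 and Fuz 0.63 and the JNK kinase gene Mapk9 1.62) and 3 lower (the small GTPase genes Rhoa -0.78, Rac1 -0.54 and Cdc42 -0.43), and Mapk9 (1.72) was called at P6. In edgeR, 0 of the 13 were called with age in GFP+ cells, in GFP- cells or in the interaction, with 5, 4 and 3 at an unadjusted p below 0.05.

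The other formins set the Daam genes in context. Of 12, Fmn1 (2.60) and Grid2ip (2.36) were called higher in P1 GFP+ cells and 7 were called lower, from -0.84 for Inf2 to -2.55 for Diap3, with a list median of -1.13. At P6 Fmn1 (1.94) was the 1 call, and 8 of the 12 had an unadjusted p below 0.05. Fmn1 was at 383 and 361 CPM in P1 GFP+ and at 126 and 186 CPM in P6 GFP+ libraries, against 39.9 to 75.5 CPM in the 4 GFP- libraries, so that its excess in GFP+ cells was seen at both ages. In the interaction 1 of the 12 was called, Fhod1 (1.73), in the direction opposite to Daam2, after a rise in GFP+ cells (1.55). Fmnl2 rose in GFP- cells (1.03).

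**Figure D4:**
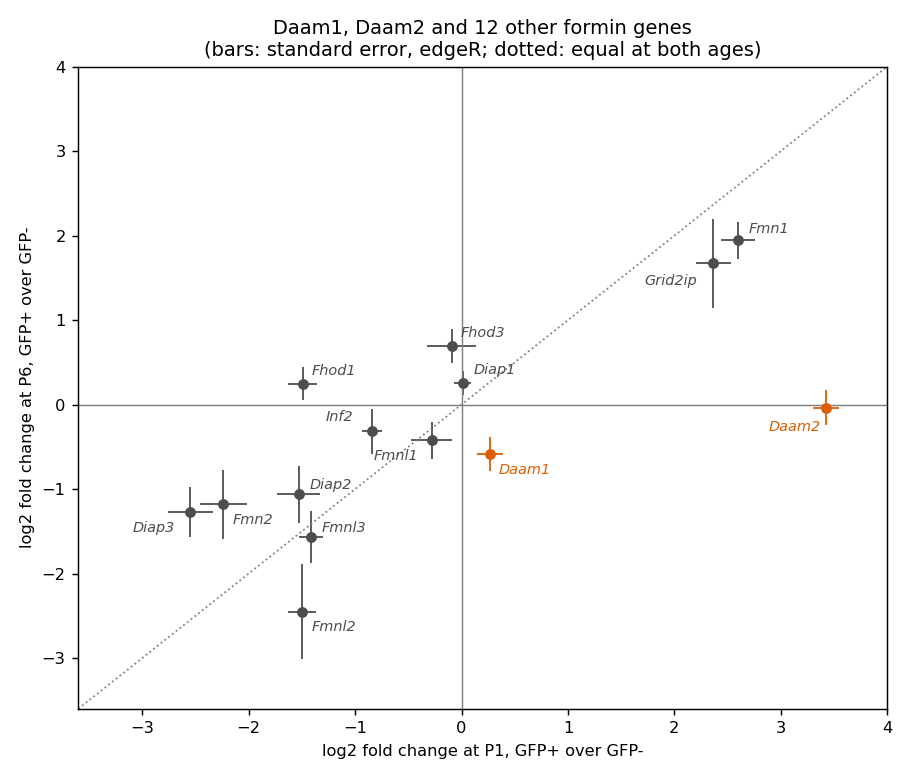
Log2 fold change of GFP+ over GFP- cells at P1 (horizontal axis) against that at P6 (vertical axis) for Daam1, Daam2 and 12 other formin genes, with bars for the standard error and a dotted line where both ages are equal. Daam2 lies at 3.42 and -0.04, far below the dotted line, while Fmn1 at 2.60 and 1.94 lies near it.

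The genes whose pattern over the 8 libraries was most like each member were found by Pearson's r of log2(CPM + 1) among 12566 genes with a mean of at least 5 CPM. The 8 points fall into 4 groups and share their libraries' depth and cell makeup, so r is given as a description only. For Celsr1 the nearest was Prox1, a supporting cell transcription factor (r = 0.999), then Sfrp1, which encodes a secreted Wnt binder (0.996). For Vangl1 the nearest were Trp53bp2 (0.994) and Atp10d (0.984), for Vangl2 Gpr85 (0.992) and Slc27a3 (0.991), for Celsr2 Fryl (0.995) and Spire1 (0.993), the latter an actin nucleator, and for Celsr3 Dpysl5 (0.981) and Pfkp (0.976). For Prickle1 they were Foxred2 (0.994) and Ahr (0.993), for Prickle2 Sin3a (0.995) and Zfp828 (0.990), for Ptk7 Ccdc8 (0.997) and Fut10 (0.996), for Daam1 Gm5124 (0.980) and Rbm27 (0.978), and for Daam2 Tnfaip2 and Dnajc25 (both 0.983). No member was among the 2 nearest genes of another member. Within the set the highest value was between Prickle1 and Ptk7 (0.98), followed by Vangl1 with Daam2 (0.95) and with Celsr2 (0.94).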

How the data were processed

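The labels' age and sorted fraction gave 4 groups of 2 libraries. The authors deposited unnormalized counts for each Ensembl gene, made by aligning paired reads to mm9 with TopHat 1.4.0 and counting with HTSeq; the counting mode and strand setting are not given in the sources used here, and the kit does not mark strand. Between 64.7% and 76.2% of the listed reads lay on genes; the rest (no gene, several genes, several places) were left out.

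The 10 genes and all lists were chosen with earlier results of these data known. All 10 members are named, whatever their values. The called genes of each pathway list are named too, except for formins called lower in P1 GFP+ cells, where only Inf2 and Diap3 are. Symbols, positions and merged exon lengths came from the NCBIM37 annotation (34391 of 36536 genes), and promoters from RefSeq. Levels (CPM) were counts scaled to 1000000 gene counts a library. Each comparison was fitted on its 4 libraries, and the interaction on all 8, with edgeR 4.0.16 in R 4.3.3: filterByExpr (minimum count 10, minimum total 15), TMM, the quasi-likelihood test and Benjamini-Hochberg adjustment over all genes tested, calling an adjusted p below 0.01. All 10 genes passed the filter in every comparison. The alternatives were DESeq2 1.42.0, other scalings, thresholds and filters, all 8 libraries in 1 fit, a replicate block and leaving out each library. The test was also run on simulated counts, for the P1 and P6 comparisons of GFP+ with GFP- cells only. All genes there were drawn at the same common dispersion. Those counts lacked the spread that differs between genes and libraries, so no conclusion on the calls is drawn from them. The replicates of a group differed by more than sampling noise (chi-square over genes per degree of freedom 15.1 to 58.0).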

Additional observations from a re-analysis of the deposited data

Results flagged for a closer look

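For 3 of the 10 genes, the ratio of GFP+ to GFP- cells differed between P1 and P6 by the interaction test over all 8 libraries. The log2 ratio at P6 minus that at P1 was -3.48 for Daam2 (edgeR, adjusted p = 0.000445), -1.52 for Vangl1 (adjusted p = 0.00711) and -1.19 for Vangl2 (adjusted p = 0.00856). Both GFP+ libraries of each gene were above both GFP- libraries at P1, and at P6 this held for Vangl1 only. The results for Vangl1 and Vangl2 were no longer called with library totals (adjusted p = 0.0129 and 0.0136) or the replicate number as a block (adjusted p = 0.0199 and 0.0231). The same held with the P1 or the P6 GFP- libraries left out singly, fits in which fewer interactions were called over all genes. With 2 libraries per group, no group was large enough to be examined for outlying samples.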

How the results depend on the processing

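Among the log2 fold changes of the 10 genes recomputed under alternatives that kept all libraries, 270 kept their direction and side of the threshold, 32 gained a call, 6 lost one and 2 changed sign; the changes of sign were Vangl2 (-0.17) and Prickle1 (-0.16) in GFP- cells with age under library totals, neither called.

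The counts of members called moved as follows, and the causes were not tested. At P1, the fold demand gave 3 higher and 0 lower, and all 8 libraries in 1 fit gave 1 lower. At P6 (1 higher, 2 lower), 3 were higher with an adjusted p below 0.05, with DESeq2 or with no filter on low counts, 2 with all 8 libraries, and the fold demand gave 0 and 0. In GFP+ cells with age (2 lower), 7 were lower with an adjusted p below 0.05, 8 with DESeq2, 10 with no filter, 3 with all 8 libraries and 1 with the fold demand. In GFP- cells with age (1 higher, 1 lower), 2 were higher with an adjusted p below 0.05 or DESeq2, 3 with no filter and 0 with the fold demand or library totals, and 2 were lower with no filter. In the interaction (0 higher, 3 lower), no filter gave 1 higher and 6 lower, an adjusted p below 0.05 or DESeq2 4 lower, and the fold demand or library totals 1 lower. The calls over all genes rose as well. At an adjusted p below 0.05, edgeR called 2843 of 18294 genes higher at P6 and 2130 of 18920 higher in GFP- cells with age. It called 1430 of 17213 lower in GFP+ cells with age and 536 of 19233 lower in the interaction. In GFP+ cells with age, DESeq2 called 1133 of 17213 genes lower and no filter 1641 of 26149.

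Leaving out each library gave 5 to 7 higher and 1 to 3 lower at P1, 0 to 3 and 0 to 4 at P6, 0 and 0 to 10 in GFP+ cells with age, 0 to 2 and 0 to 2 in GFP- cells with age, and 0 and 1 to 6 in the interaction. Signs changed for Celsr3 at P1 (-0.63 to 0.58), Vangl2 at P6 (-0.10 to 0.085) and with age in GFP- cells (-0.052 to 0.12), Daam2 at P6 (-0.20 to 0.17) and Prickle1 with age in GFP- cells (-0.20 to 0.26). Over all genes, 2363 were called at P6, 366 without P6 GFP- replicate 1 and 0 without replicate 2, and 828 in GFP+ cells with age, 137 without P1 GFP+ replicate 2 but 6404 and 7531 without P6 GFP+ replicate 1 and 2, the fits that called 10 members lower. DESeq2 called 4891 at P6, 3037 in GFP+ and 3043 in GFP- cells with age (edgeR 828 and 1397) and 1422 in the interaction (edgeR 372); no filter gave 5309, 4090, 3993 and 2400. Library totals turned the split of higher and lower calls from 1413 and 950 to 1282 and 514 at P6, from 954 and 443 to 564 and 575 with age in GFP- cells, where the median of all genes moved to -0.21, and from 182 and 190 to 192 and 127 in the interaction, where it moved to 0.16.

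With the replicate number as a block, members called were 2 higher at P6 and 1 lower in the interaction, and the genes called were 6363 at P1, 2837 at P6, 1079 and 1040 with age in GFP+ and GFP- cells and 151 in the interaction. To see whether the replicate numbers pair the samples, replicate 1 minus replicate 2 in log2(CPM + 1) was taken for each gene within each group. These differences were correlated over genes between the 2 groups of a comparison. Pearson's r was 0.057 at P1, 0.063 at P6, -0.194 across age in GFP+ and -0.337 in GFP- cells. The numbers were therefore not taken to pair the samples. A crossed pairing, chosen after seeing the data, called 1254 genes across age in the GFP+ and 3063 in the GFP- comparison, with 2 members higher and 2 lower in the latter. With 2 libraries per group and a common dispersion of 0.0225 to 0.0477, changes under the spread between libraries were not detectable.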
